A study of Homo sapiens with 8 samples.

Results

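H3K27ac, a histone mark of active promoters and enhancers, was described here over 1 Mb of 5q15 (build hg19, chromosome 5, 95.0 to 96.0 Mb). Of the genes in it, RHOBTB3, GLRX, ELL2 and PCSK1 were placed, and starts of any others could not be. Chromatin came from A549 cells, a lung adenocarcinoma line with constitutive NRF2 activity, 48 h after transfection with CEBPB siRNA-1, CEBPB siRNA-2 or a control siRNA. CEBPB is a basic leucine zipper transcription factor. There were 4 immunoprecipitated libraries, 1 with each CEBPB siRNA and 2 with the control siRNA (control 1 and control 2). All groups are the same line, no label says that the controls were separate cultures, and the lists do not measure the CEBPB level. The members are all peaks overlapping the window: 33 under siRNA-1, 47 under siRNA-2, 60 in control 1 and 57 in control 2. Merged where they overlapped, they formed 66 of the 60669 regions found on chromosomes 1 to 22 and X. The window was chosen by its number of regions called in both controls and with neither siRNA (lost regions), so its differences between siRNA and control are given as a description, with no test.

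The 4 genes have unrelated products. RHOBTB3 encodes a protein with BTB domains and ATPase activity, which takes part in transport between endosomes and the Golgi. GLRX encodes glutaredoxin 1, a thiol oxidoreductase that removes glutathione from modified proteins. ELL2 encodes an elongation factor of RNA polymerase II and a subunit of the super elongation complex. PCSK1 encodes prohormone convertase 1, which cleaves hormone precursors such as proinsulin in the secretory granules of endocrine cells. Enhancers often lie far from the genes that they act on, and a peak list does not say which gene an element serves.

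Less of the window lay under peaks with either CEBPB siRNA than in either control. Called length was 28.7 kb under siRNA-1 and 40.8 kb under siRNA-2, against 76.1 kb in control 1 and 69.6 kb in control 2. The means were 34.7 ± 8.55 kb with siRNA and 72.8 ± 4.62 kb in controls (SD, n = 2 each), so that the siRNA mean was 47.7% of the control mean and the siRNA minus control difference was -38.10 kb. That difference was larger than the SD of either group, which is no test, since the window was chosen on this contrast. Between the libraries sharing a number in the labels the difference was -47.41 kb for number 1 and -28.79 kb for number 2. Over the genome the groups overlapped, with 70.4 and 61.7 Mb called under siRNA-1 and siRNA-2, against 67.9 and 62.1 Mb in control 1 and control 2. The window thus made up 0.0407% and 0.0661% of called length with the siRNAs and 0.112% in each control. Depth is unknown for these lists, and in a bulk culture fewer acetylated cells and less acetylation per cell cannot be told apart.

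In the neighbouring megabases the groups overlapped. In the 1 Mb below the window 5.59 kb were called under siRNA-1 and 4.52 kb under siRNA-2, against 5.76 kb in control 1 and 3.85 kb in control 2. In the 1 Mb above it the values were 10.1 kb and 7.62 kb with the siRNAs, against 7.33 kb and 8.78 kb in the controls. The last region outside the lower edge (from 94982348) was called in all 4 libraries, and the first beyond the upper edge (from 96023227), with 278 bp in control 1 and 333 bp in control 2, was itself a lost region. Just inside the lower edge (from 95046992) a region had 558 and 1252 bp under siRNA-1 and siRNA-2, against 414 and 755 bp in control 1 and control 2, and the last region inside the upper edge is the element 229 kb upstream of PCSK1 described further on. Among 1140 bins of 1 Mb with at least 20 kb called on average in controls, the median siRNA length was 99.1% of control, and 18 bins had a lower share than this window.

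**Figure D1:**
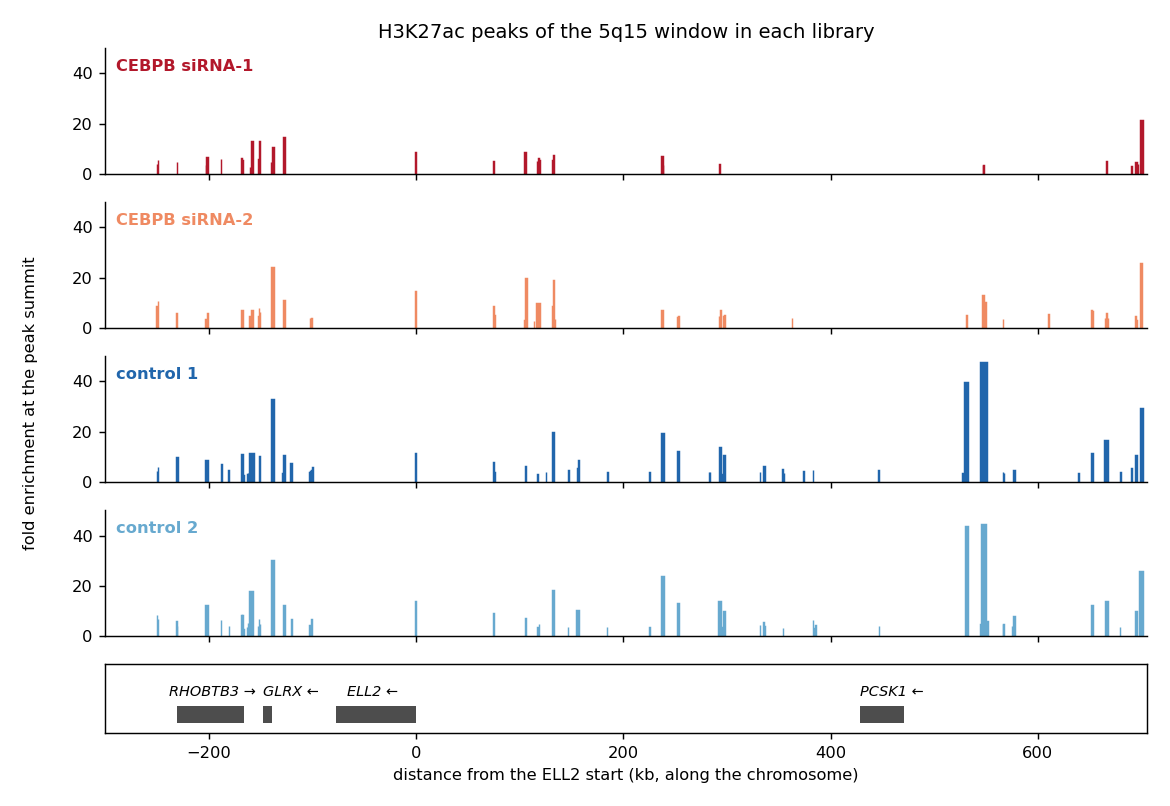
Peaks of the 5q15 window in the 4 libraries, plotted by distance from the ELL2 start (kb, along the chromosome). Each bar spans 1 peak, its height is the fold enrichment at the summit, and the lowest panel shows the 4 genes with their direction of transcription. The pair of tall peaks upstream of PCSK1, 39.8-fold and 47.7-fold in control 1, stands beside lower bars or none in the siRNA libraries.

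The strongest acetylated elements of the window in control cells lay upstream of PCSK1 and had shorter calls or none with siRNA. Fold enrichments, here and in the other paragraphs and captions, are the authors' own values and serve only to describe and rank peaks within their own library. Set side by side between libraries of unknown depth, they do not measure a change. Percentiles rank a peak by −log10 q among all peaks of its library, and ranks in lists of different lengths do not measure a change. The first element, centred 76.8 kb upstream of the PCSK1 start (chromosome 5, 95842014 to 95849554), had 856 bp called under siRNA-1 and 3171 bp under siRNA-2, against 7122 bp in control 1 and 6121 bp in control 2. Its best peak was enriched 3.52-fold under siRNA-1 (percentile 14.3) and 13-fold under siRNA-2 (percentile 78.8), against 47.7-fold in control 1 (percentile 98.6) and 44.7-fold in control 2 (percentile 98.7). It was the highest peak of the window in both controls. The siRNA-1 peaks had their summits 137 and 523 bp from the top summit of control 1, the siRNA-2 peaks 5 and 759 bp from it, and the top summit of control 2 was 53 bp from it. The longer siRNA-2 peak (1686 bp, 10.3-fold) was the one at 759 bp.

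The second element lay 59.9 kb upstream of the PCSK1 start (chromosome 5, 95827218 to 95830522). No peak was called there under siRNA-1 and 395 bp under siRNA-2, against 3305 bp in control 1 and 2896 bp in control 2. Its enrichment was 5.14-fold under siRNA-2 (percentile 35.5), against 39.8-fold in control 1 (percentile 96.6) and 43.6-fold in control 2 (percentile 97.3). Because siRNA-2 kept a short call, this element is not among the lost regions. Another element, 195 kb upstream of PCSK1 (chromosome 5, 95962115 to 95966218), had a mean called length with siRNA of 26.3% of the control mean, with 869 and 1203 bp under siRNA-1 and siRNA-2 against 4104 and 3768 bp in control 1 and control 2. The element 229 kb upstream of PCSK1 (chromosome 5, 95995952 to 95999497) was also shorter with both siRNAs, but by less, at 74% of the control mean. It had 2496 bp under siRNA-1 and 2243 bp under siRNA-2, against 2862 bp in control 1 and 3546 bp in control 2. It was the highest peak of the window in both siRNA libraries, enriched 21.6-fold under siRNA-1 and 25.7-fold under siRNA-2. In the controls it ranked 4, at 29.4-fold and 25.7-fold. Starts of genes other than the 4 could not be placed on hg19 here. Whether this or another element upstream of PCSK1 lies at such a start is therefore not known. Distances from the PCSK1 start give positions only and assign no element to that gene.

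**Figure D2:**
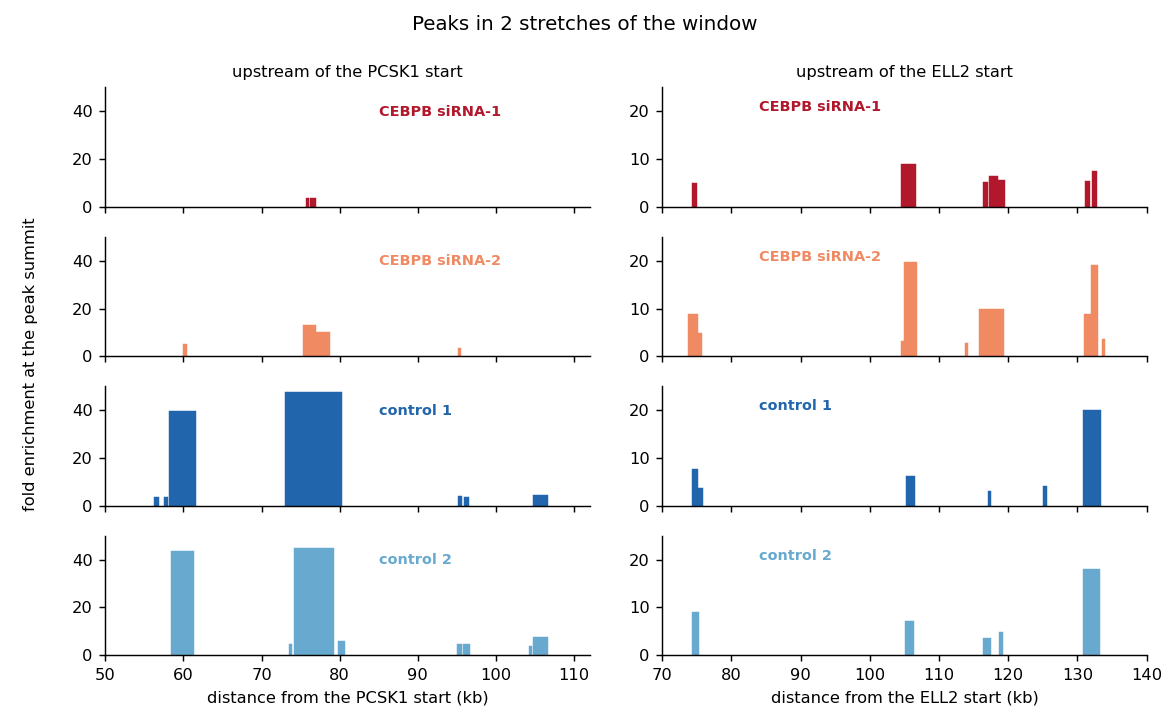
Peaks upstream of the PCSK1 start (left) and of the ELL2 start (right) in the 4 libraries, by distance in kb from each start, with bar height giving fold enrichment. On the left the control elements of 3305 bp and 7122 bp (control 1) are absent or shorter with siRNA; on the right the elements near 106 and 118 kb are longer with both siRNAs than in both controls.

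Of the 4 gene starts, those of RHOBTB3, GLRX and ELL2 carried a peak in every library, while none had one within 1 kb of the PCSK1 start. The RHOBTB3 start (chromosome 5, 95066524 to 95067722) had 302 bp under siRNA-1 and 825 bp under siRNA-2, against 1139 bp in control 1 and 925 bp in control 2. The GLRX start (95157682 to 95160606) had 2525 and 2778 bp under siRNA-1 and siRNA-2, against 2890 and 2834 bp in control 1 and control 2, and the siRNA mean was 92.6% of the control mean. GLRX ranked 5 by fold enrichment in the window under siRNA-1 (10.5-fold) and 2 under siRNA-2 (24.4-fold), against 3 in both controls (32.9-fold and 30.1-fold). The ELL2 start (95296458 to 95298021) had 904 and 952 bp under siRNA-1 and siRNA-2, against 1469 and 1564 bp in control 1 and control 2. Called lengths at all 3 starts were lower in both siRNA libraries than in both controls, by little at GLRX and by more at RHOBTB3 (54.6% of the control mean) and ELL2 (61.2%). Over the genome this order held in 25.6% of regions called in all 4 libraries. The RHOBTB3 value depended on the library, at 79.9% without siRNA-1 and 29.3% without siRNA-2.

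The ELL2 and PCSK1 gene bodies carried little of the mark. A stretch of 98.4 kb without a peak in any library (95198074 to 95296457) covered ELL2 up to its start region, the only region in that gene. Within PCSK1 no peak was called with either siRNA, while control 1 had 523 bp and control 2 had 241 bp at separate positions, and the region nearest to the PCSK1 start was 24.2 kb away. RHOBTB3 was acetylated inside the gene as well: a region 28.6 kb past its start (95094075 to 95097208) had 1622 and 1758 bp under siRNA-1 and siRNA-2, against 3012 and 2981 bp in control 1 and control 2. In all, the RHOBTB3 segment had 3.71 and 3.67 kb called under siRNA-1 and siRNA-2, against 7.42 and 6.65 kb in control 1 and control 2.

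Promoter sequences are shown for the 3 of the 4 genes with an entry in the RefSeq table (build GRCh38.p14; of 2 PCSK1 starts listed, the one farther upstream), to set the acetylated RHOBTB3 and GLRX starts beside the PCSK1 start that had no peak. Each runs 5′ to 3′ from 250 bases before to 50 bases after the start, and positions of that build cannot be set against the hg19 positions of the peaks. Capitals mark matches on either strand to any of 6 motifs. For transcription factors these were TTGCNNAA for C/EBP proteins, TGACNNNGC for the antioxidant response element, which NRF2 binds, TGACGTCA for the cyclic AMP response element, and the letters TGANTCA for AP-1. The general promoter motifs were the GC box, searched for as the letters GGGCGG in both orientations, and the TATA box, for which the letters sought in each window were TATAAA.
RHOBTB3, GRCh38 chr5:95731086-95731385, + strand: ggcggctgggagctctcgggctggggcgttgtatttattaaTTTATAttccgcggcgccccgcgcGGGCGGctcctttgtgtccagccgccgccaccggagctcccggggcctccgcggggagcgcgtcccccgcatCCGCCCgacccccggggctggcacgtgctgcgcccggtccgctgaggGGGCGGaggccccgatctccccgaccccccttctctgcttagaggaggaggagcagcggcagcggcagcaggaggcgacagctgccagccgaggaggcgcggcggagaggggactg
GLRX, GRCh38 chr5:95822677-95822976, - strand: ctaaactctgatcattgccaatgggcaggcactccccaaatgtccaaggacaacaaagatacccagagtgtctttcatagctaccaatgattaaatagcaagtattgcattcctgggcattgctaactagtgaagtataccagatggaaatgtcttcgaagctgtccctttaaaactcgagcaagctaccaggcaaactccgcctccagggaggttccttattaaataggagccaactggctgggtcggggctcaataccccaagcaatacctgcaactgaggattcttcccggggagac
PCSK1, GRCh38 chr5:96433199-96433498, - strand: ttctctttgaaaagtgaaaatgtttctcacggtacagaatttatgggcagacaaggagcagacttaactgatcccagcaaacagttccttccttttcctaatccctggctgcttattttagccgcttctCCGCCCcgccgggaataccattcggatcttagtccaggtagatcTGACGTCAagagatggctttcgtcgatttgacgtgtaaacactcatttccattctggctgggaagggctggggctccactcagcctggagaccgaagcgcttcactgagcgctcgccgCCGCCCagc
RHOBTB3 was 73.7% G and C with 36 CpG dinucleotides, GLRX 47.7% with 5, and this PCSK1 start 51.7% with 16, beside a median of 58.7% over 35116 promoters. None of the 3 windows held the C/EBP letters, which 10.5% of all promoters hold, nor the antioxidant response (13.3%) or AP-1 (7.71%) letters. This PCSK1 start held 1 full cyclic AMP response element, found in 1.85% of promoters, and 2 GC boxes. The other PCSK1 start listed, not shown, was 61% G and C with 13 CpG dinucleotides. It held 1 GC box, 1 TATA box at position -28 and no cyclic AMP response element. RHOBTB3 held 3 GC boxes (45% of promoters hold at least 1). It also held 1 match to the TATA box letters (11.5%), at position -209 and on the opposite strand. GLRX held no match to any of the 6 motifs. None of the matches overlapped. A match is a description of letters, not a binding site.

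Between ELL2 and PCSK1 called length was lower with both siRNAs, but both of the regions longer with each siRNA than in each control also lay there. This segment of 428 kb had 8.21 kb called under siRNA-1 and 15.5 kb under siRNA-2, against 23.9 kb in control 1 and 21.4 kb in control 2. At the element 132 kb upstream of ELL2 (95428821 to 95431309), a single peak of 2489 bp in control 1 and of 2304 bp in control 2 stood beside 2 peaks with each siRNA, totalling 1183 bp under siRNA-1 and 1732 bp under siRNA-2. The region at 95533988 to 95536769 had 1649 and 1439 bp under siRNA-1 and siRNA-2, against 2747 and 2782 bp in control 1 and control 2. At 95589611 to 95591925 it was 269 and 1473 bp under siRNA-1 and siRNA-2, against 1959 and 2264 bp in control 1 and control 2. No gene start of the 4 lies in this stretch.

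The opposite order held at a pair of neighbouring elements. The region 118 kb upstream of ELL2 (95413848 to 95417329) had 2588 bp under siRNA-1 and 3330 bp under siRNA-2, against 275 bp in control 1 and 1336 bp in control 2, a ratio of means of 3.67. This ratio was 2.21 without control 1 and 10.8 without control 2. Its best peak stood at percentile 53.1 under siRNA-1 and 70.9 under siRNA-2, against 2.48 in control 1 and 31.4 in control 2. The region 106 kb upstream of ELL2 (95402432 to 95404705) had 1986 and 2052 bp under siRNA-1 and siRNA-2, against 1146 and 1181 bp in control 1 and control 2. In the siRNA-2 library this peak ranked 3 in the window, at 19.8-fold, and under siRNA-1 it reached 8.87-fold, against 6.21-fold and 7.23-fold in control 1 and control 2. Both lie on the ELL2 side of the shortened element at 132 kb. Among regions of 1 kb or more in a control, the next highest ratio belonged to a region between RHOBTB3 and GLRX (95145219 to 95147608), with 1781 and 1136 bp under siRNA-1 and siRNA-2, against 673 and 1696 bp in control 1 and control 2, where the groups overlapped.

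**Figure D3:**
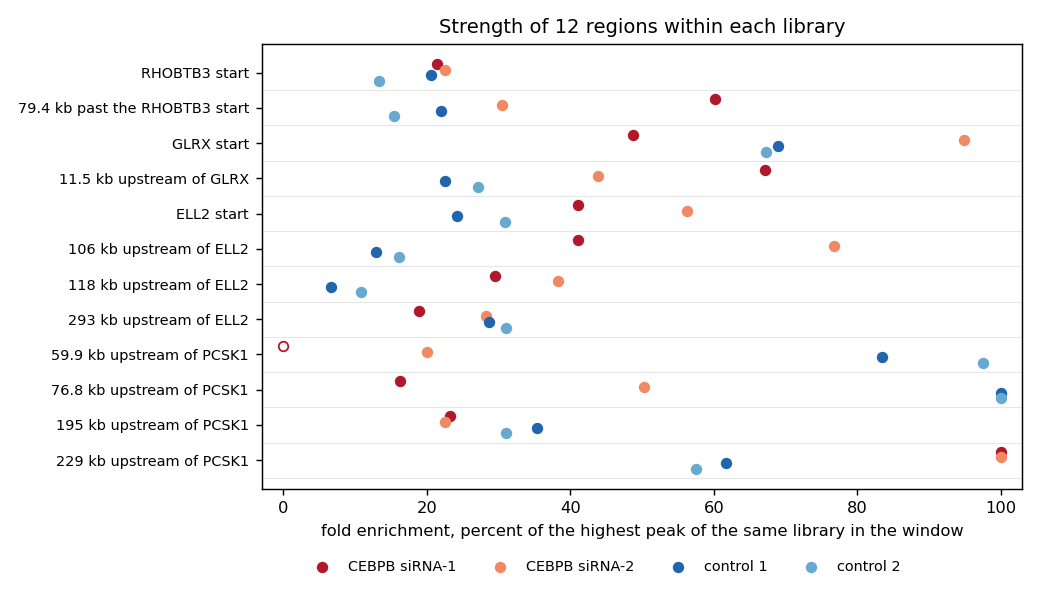
Fold enrichment of the best peak in 12 named regions, as a percentage of the highest peak of the same library in the window; an open circle at 0 marks no peak. The regions 59.9 and 76.8 kb upstream of PCSK1 stand at 83.4 to 100% in the controls and at most 50.3% with the siRNAs; since the highest peak differs between the groups, higher percentages elsewhere with siRNA partly follow from the scale.

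Segment by segment, 8 of the 9 stretches cut at the gene limits had less called length in both siRNA libraries than in both controls. The share of such stretches over the genome was not computed, and the window was chosen on this contrast. The PCSK1 segment was nearly empty, with 0.523 kb in control 1, 0.241 kb in control 2 and no peak with either siRNA. The largest difference was past the PCSK1 start, with 6.30 and 9.69 kb under siRNA-1 and siRNA-2 against 26.0 and 23.1 kb in control 1 and control 2, which is -16.54 kb of the -38.10 kb. The segment from ELL2 to PCSK1 gave -10.79 kb and that from GLRX to ELL2 -4.14 kb. RHOBTB3 gave -3.34 kb, the segment from RHOBTB3 to GLRX -2.20 kb, ELL2 -0.57 kb, PCSK1 -0.38 kb and GLRX -0.21 kb. The exception was the stretch before RHOBTB3, at 1.20 and 2.54 kb under siRNA-1 and siRNA-2 against 1.58 and 2.01 kb in control 1 and control 2, where the groups overlapped.

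**Figure D4:**
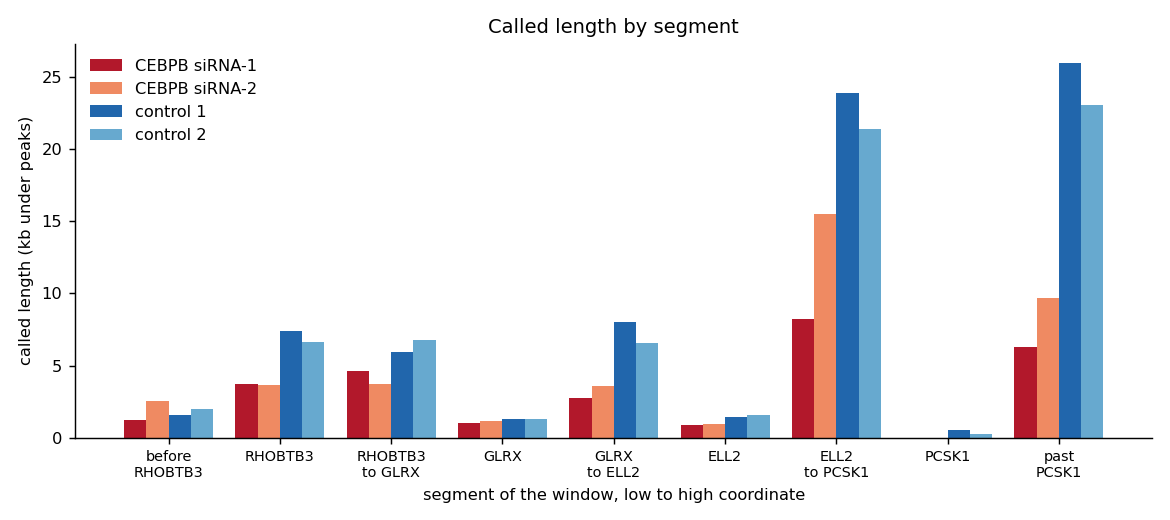
Called length in kb in each of the 9 segments cut at the gene limits, from low to high coordinate, with 1 bar per library. The 2 highest groups of bars are the stretch from ELL2 to PCSK1 and the stretch past the PCSK1 start, where the controls reach 23.9 kb and 26.0 kb (control 1).

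By presence and absence of calls, 44 of the 66 regions were called in both controls, and 16 of these (36.4%) had no call with either siRNA, beside 13.3% over the genome; this count chose the window. Counting regions that reached a −log10 q of 10 in each control, 2 of 26 (7.69%) were lost, beside 3.43% over the genome. The 16 lost regions were mostly weak in controls, with a median percentile of 28.3 in control 1 and 23.9 in control 2 and a range of 0.528 to 72.2. The strongest, 156 kb upstream of ELL2 (95452685 to 95455136), had no peak with either siRNA, against 2183 bp in control 1 and 2213 bp in control 2. Next came a region 18.6 kb upstream of GLRX (95176525 to 95178620; 2096 and 1173 bp in control 1 and control 2) and regions at 95632982 to 95635081 (1830 and 1236 bp), 95873719 to 95875600 (1870 and 1806 bp) and 95680704 to 95681444 (715 and 638 bp). By segment, 8 of the 16 lay between ELL2 and PCSK1 and 3 past the PCSK1 start. Of the 20 regions called with both siRNAs none was missing from both controls, beside 13.6% over the genome. The lost count was 30 without control 2 and 8 when peaks below a −log10 q of 10 were dropped from every list. Dropping weak siRNA peaks makes some regions with a siRNA call count as lost, unlike in the 2 of 26 above. At that threshold 1 region counted as gained, the one 118 kb upstream of ELL2, and without siRNA-1 there were 5. Genome shares were not computed for these alternative lost and gained counts.

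Regions that kept a call also differed between the groups. Of the 20 regions called in all 4 libraries 13 (65%) were shorter with both siRNAs than in both controls, beside 25.6% over the genome, and 2 (10%) were longer, beside 26.9%. The 13 regions had 17.7 kb called under siRNA-1 and 22.9 kb under siRNA-2, against 37.6 kb in control 1 and 36.5 kb in control 2. The median siRNA to control length ratio of the 20 was 72.0%, beside 101% for all 24133 regions called in all 4 libraries. Lost regions gave -12.80 kb of the difference and regions called in all 4 gave -13.45 kb. The 7 regions called in both controls and under siRNA-2 but not siRNA-1 gave -8.49 kb. Regions called in a single control and under no siRNA gave -2.86 kb (11 in control 1) and -0.76 kb (5 in control 2). Of 14 regions formed by 1 peak in each control, 9 (64.3%) had more peaks with at least 1 siRNA, beside 23.4% over the genome. Of 6 regions formed by 1 peak under each siRNA, 1 (16.7%) had more peaks in a control, beside 19.3% over the genome. In 19 of the 20 kept regions the summit of control 1 lay inside a siRNA-2 peak, and in 17 inside a siRNA-1 peak. It lay inside a control 2 peak in all 20. These summit counts were not made over the genome. Without siRNA-1, 21 regions were shorter, out of 27 then called in every library. This share was not computed over the genome. The 25.6% above is not its counterpart, since 1 siRNA library lies below both controls more easily than 2 do.

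**Figure D5:**
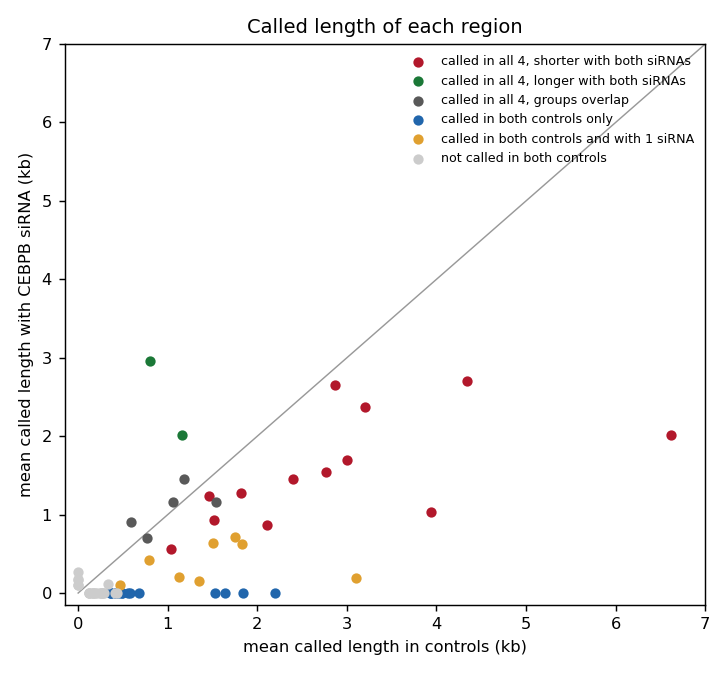
Mean called length per region with CEBPB siRNA against controls (kb, n = 2 libraries each), with the line of equal length and colours for the pattern of calls. All 13 shortened regions lie under the line and both lengthened regions above it; lost regions lie on the horizontal axis.

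Inside the window called length was lower in the siRNA-1 library than in the siRNA-2 library, the opposite of their order over the genome. The siRNA-1 library lacked a peak in 23 of the 44 control regions (52.3%) and the siRNA-2 library in 17 (38.6%), beside 19.2% and 18.8% over the genome. Only 1 of the 44, inside RHOBTB3 (95109280 to 95110210), was missing under siRNA-2 alone, with 845 bp under siRNA-1 against 904 and 672 bp in control 1 and control 2. In 22 of the 44 (50%) called length was lower under siRNA-1 than under siRNA-2, beside 33.7% over the genome. In 6 (13.6%) it was higher, beside 53% over the genome, and in 16 both were at 0. The difference between the siRNA libraries has 1 library on each side and was not tested. Called bases overlapped at a Jaccard index of 0.50 between the siRNA libraries and 0.697 between the controls, against 0.289 to 0.451 between a siRNA library and a control. Over the genome the index was 0.659 between the siRNA libraries, 0.765 between the controls and 0.574 to 0.613 across. Most siRNA-called bases were also control-called, from 80.8% to 86.0%. Across the 20 kept regions fold enrichments ranked alike in the controls (Spearman rank correlation 0.91) and less so between a siRNA library and a control (0.17 to 0.26). Between the siRNA libraries the correlation was 0.44. These regions share their libraries, and the values are descriptions. The correlations were not computed over the genome, and the window was chosen for calls that differ between siRNA and control.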

How the data were processed

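Per the submitters' processing notes, the authors used BWA 0.7.17, SAMtools 1.7.0, MACS2 2.2.7.1 and build hg19; the options they ran with were not given in the sources used here, and neither is whether the 4 input libraries, not analysed here, entered the calls. Per the labels, reads were single-end, 101 bases. Each deposited list gives positions, a fold enrichment (ratio) at the summit, −log10 p, −log10 q and a score per peak; the authors' highest q was 0.0498. The lists hold no read counts, so depth is unknown and an absent peak is only an absent call.

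Overlapping peaks (1 bp or more) of the 4 libraries were merged into regions, without chromosome Y and other sequences (Python 3.11.15, pandas 2.3.3), with merging, classes and lengths tested on simulated data. Called length is the number of bases under peaks. Gene limits, to 1 kb, came from the rule that set the window; ELL2 strand is background knowledge. The members, the window and the genes were chosen with earlier results of these data known. Regions were named by rule: those within 1 kb of a gene start, the 5 strongest lost, every gained, the 3 lowest and 3 highest kept ratios, and the highest peaks; the regions 59.9 kb upstream of PCSK1, 132 kb upstream of ELL2 and at 95533988, and those inside RHOBTB3, were named after their values were seen. Starts of other genes could not be placed on hg19 here. No test was run, since the window was chosen on this contrast and 2 against 2 libraries cannot go below an exact permutation p of 0.333. The siRNAs served as replicates of the knockdown.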

Additional observations from a re-analysis of the deposited data

How the results depend on the processing

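The called-length difference of the window kept its sign under all 11 alternatives tried. It lay between -44.15 kb (without siRNA-2) and -32.06 kb (without siRNA-1), and was -38.44 kb after scaling to total called length. The mean within label numbers (replicate block) was -38.10 kb, which equals the main difference by construction. Leaving out a library could not change the sign either, since both siRNA libraries lay below both controls. The 7 segments other than PCSK1 and the stretch before RHOBTB3 were below 0 in every alternative, and PCSK1 was at 0 under 1 of them. In all of these segments both siRNA libraries lay below both controls, so leaving out a library could not change their sign. The other counts moved more. Lost regions numbered 9 with a −log10 q of 5 or more, 8 with 10 or more and 7 at equal called length, and 17 to 30 without each library in turn. Gained regions numbered 1 with a −log10 q of 10 or more and 5 under 50% reciprocal overlap of peaks, and 0 to 5 without each library. Kept regions numbered 10 with a −log10 q of 10 or more, 12 at equal called length and 8 under reciprocal overlap. Shortened kept regions numbered 8 with a −log10 q of 10 or more, and 13 to 21 without each library. For none of these alternative counts was the share over the genome computed. Stricter thresholds leave fewer regions and leaving out a library requires fewer calls or absences by construction; beyond that the cause was not tested. Unknown depth limits what an absent peak can show, most of all for regions as weak as the lost ones.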
